A study of Mus musculus with 16 samples.

Results

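The genes described are the nuclear genes for the 5 complexes of oxidative phosphorylation, measured in cultured primary mouse microglia that carried or lacked Grn, the gene for the lysosomal glycoprotein progranulin. A gene was a member if its symbol began as those of subunits of complexes I to V do, carried no pseudogene suffix (-ps), and had a mean of at least 5 CPM, its count after scaling the total count of each library to 1000000, over the 16 libraries. Of 105 symbols of this form, 14 carried the suffix and 12 were below the minimum, which left 79 members among the 56980 genes of the table and the 12272 genes tested. Symbols placed 38 members in complex I, 4 in complex II, 8 in complex III, 12 in complex IV and 17 in complex V. All 79 passed the filter on low counts. The older mouse names of complex V are used as in the deposited table, so Atp5b is the gene also known as Atp5f1b.

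Oxidative phosphorylation couples the flow of electrons along the inner mitochondrial membrane to the making of ATP. Complexes I and II take electrons from NADH and succinate, complex III passes them to cytochrome c, complex IV hands them to oxygen, and complex V, the ATP synthase, uses the resulting proton gradient. Most subunits are encoded in the nucleus and imported, while the mitochondrial genome encodes a few core subunits of every complex except complex II. Microglia, the macrophages of brain tissue, use both this pathway and glycolysis, and shifts between them are well known in activated macrophages.

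The cells were WT or KO for Grn and received 2 uM rimeporide, an inhibitor of the sodium-proton exchanger NHE1, or the same share of the solvent DMSO for 72 h, with 4 libraries in each of the 4 groups. Microglia were shaken off mixed glial cultures grown from cortex and hippocampus of mice at P1 to P3, with no sort or gate named, so a library is a culture, and whether several mice were pooled into it is not stated. The labels give no Grn allele, sex or strain. The labels speak of biological replicates for each genotype but do not say whether libraries with one number came from one culture, so p-values measure the spread between libraries of a group.

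Libraries held 3666413 to 7929499 counts, and RNA integrity numbers were 10.0 or 9.9 where given. The level of Grn was 1729 ± 115 CPM (mean ± SD of 4 libraries) in WT DMSO against 12.7 ± 1.8 CPM in KO DMSO, and 1607 ± 27.8 against 17.4 ± 5.03 CPM with rimeporide. The 15 microglial markers summed to between 4716 and 5737 CPM in every library. By the edgeR test used below, 0 were higher and 2 lower in KO DMSO against WT DMSO (Aif1 at -0.56 and Cx3cr1 at -0.61, log2). In KO against WT with rimeporide 0 were higher and 4 lower (C1qa, Cx3cr1, Tmem119 and Itgam). The lower shares are 13.3% and 26.7%, against 8.56% and 2.32% of all tested genes. The 10 neuronal markers summed to 7.48 to 14.5 CPM in the WT libraries and 45.9 to 82.8 CPM in the KO libraries, and the 12 astrocyte markers to 16.9 to 35 CPM in WT and 74.2 to 112 CPM in KO, under both treatments. Markers of the oligodendrocyte lineage (10 genes) summed to 39.5 to 96.6 CPM in WT and 64.9 to 94.7 CPM in KO, and those of fibroblasts and vessels (12 genes) to 33.8 to 67.4 CPM in WT and 43.3 to 71.9 CPM in KO. No marker of these lists was at 0 in every library. The part of these other cells in the values below was not tested, and in bulk cultures fewer cells of a type and less RNA per cell cannot be told apart.

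A measure of the libraries was low in 3 of the 4 KO DMSO libraries and is used as a covariate below. A processed pseudogene is a genomic copy of a spliced transcript, and its tags can be hard to tell from those of the parent gene. The processed pseudogene score of a library, the mean over 933 tested processed pseudogenes of their deviation in log2 CPM from the mean of all libraries, was -0.77, -0.54 and -1.01 in KO DMSO replicates 1, 3 and 4 and 0.12 in KO DMSO replicate 2. In the other 12 libraries it lay between -0.14 and 0.59. So 3 of the 4 KO DMSO libraries lay below every other library in this score, and the fourth did not. The same 3 libraries had the largest total counts, 7929499, 6659436 and 6660582, against 4422263 for replicate 2 and 3666413 to 5966784 in the other groups, and the part of depth in the results was not tested. Members Cox6c2 and Ndufb4c are themselves annotated as processed pseudogenes and are among the 933.

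Taken by complex, the summed levels of the groups mostly overlapped. The 79 members together made up 17013 CPM ± 486 (SD, n = 4) in WT DMSO, 17614 ± 846 in KO DMSO, 17216 ± 251 in WT rimeporide and 17701 ± 364 in KO rimeporide, and the ranges of all 4 groups overlapped. Complex I summed to 4958 ± 182, 4988 ± 307, 4980 ± 141 and 5098 ± 116 CPM in the same order of groups. Complex II, the only one whose subunits are all nuclear, summed to 432 ± 13.2, 468 ± 37.3, 428 ± 19.9 and 414 ± 33.5 CPM. Its KO DMSO libraries read 504, 415, 477 and 476 CPM, so that replicate 2 was the lowest of the group and lay below every WT DMSO library.

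Complex III summed to 1151 ± 36.1 CPM in WT DMSO, 1260 ± 89.1 in KO DMSO, 1199 ± 47.3 in WT rimeporide and 1280 ± 38.5 in KO rimeporide. All 4 KO rimeporide libraries, at 1281, 1280, 1327 and 1233 CPM, lay above all WT DMSO libraries, which reached 1202. Complex IV summed to 4223 ± 130, 4109 ± 205, 4348 ± 151 and 4460 ± 169 CPM in the order WT DMSO, KO DMSO, WT rimeporide and KO rimeporide, and KO DMSO replicate 4, at 3802 CPM, was its lowest library. All KO rimeporide libraries, from 4316 CPM up, lay above all KO DMSO libraries, which reached 4234. In complex V the sums were 6249 ± 218, 6788 ± 411, 6261 ± 137 and 6448 ± 121 CPM, with KO DMSO replicate 1 highest at 7321. These sums are descriptions, with no test.

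**Figure D1:**
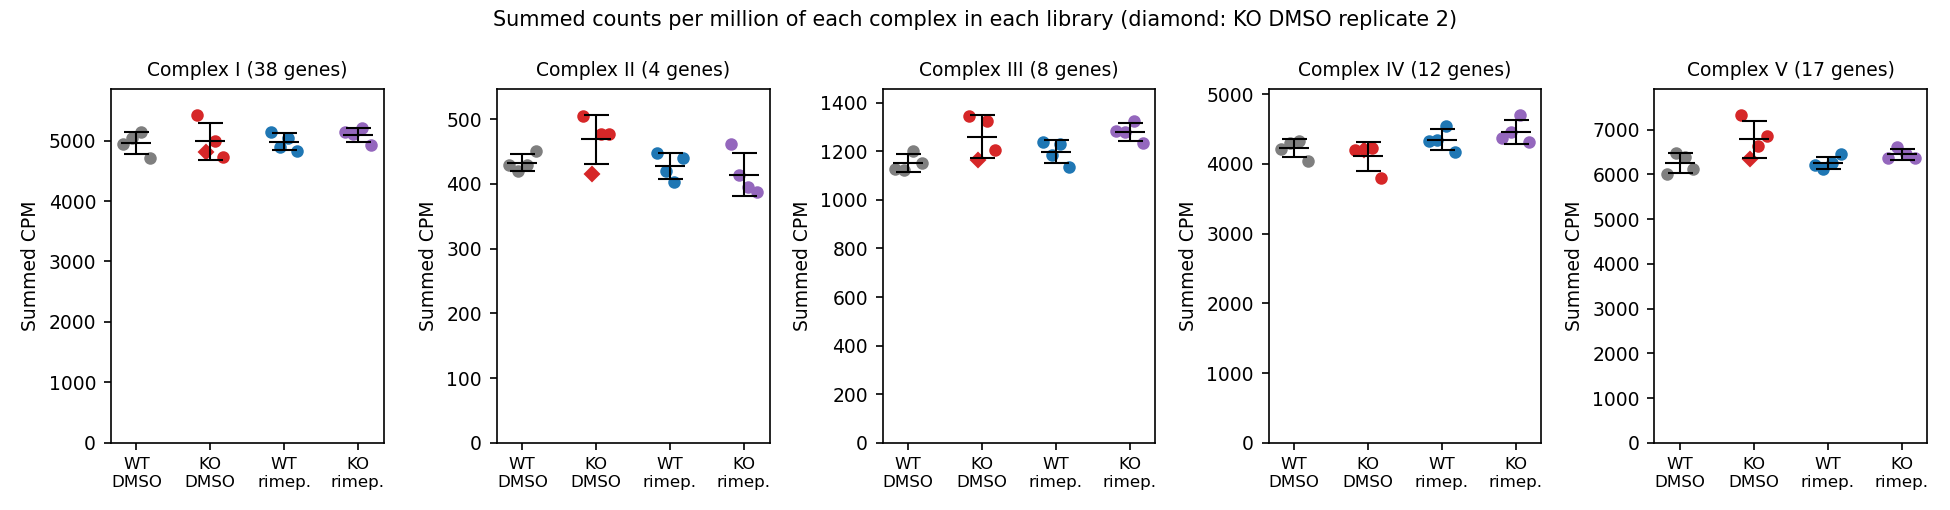
Summed CPM of the members of each complex, with 1 point for each library, a diamond for KO DMSO replicate 2, and bars for the mean and SD of 4 libraries; each vertical axis starts at 0. The groups overlap in complexes I, II and V, KO rimeporide lies above KO DMSO in complex IV and above WT DMSO in complex III, and KO DMSO replicate 1 is the highest library in complex V at 7321 CPM.

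The members with the highest CPM of their complex were Ndufb1 (397 CPM over all libraries) in complex I, Sdha (165) in complex II, Uqcrh (364) in complex III, Cox7c (863) in complex IV and Atp5l (1390) in complex V. The GENCODE M21 annotation types the Ndufb1 entry as a bidirectional promoter lncRNA, not as a protein-coding gene. The library kit reads tags at the 3' end, and CPM was not divided by transcript length, so these values do not rank the amounts of the transcripts. None of the 5 passed the edgeR test of the 4 groups in any of the comparisons below, but some passed in other settings. DESeq2 called Cox7c lower in KO DMSO against WT DMSO, and Cox7c and Uqcrh higher for rimeporide in KO. Without a filter on low counts, Atp5l was lower for rimeporide in KO in edgeR, as was Sdha without KO DMSO replicate 2. Tissue-restricted isoforms were low: Cox4i2, the lung and hypoxia form of Cox4i1, averaged 0.0156 CPM over all libraries, Cox6a2, the muscle form of Cox6a1, 1.84 CPM, and Cox7a1, the muscle form of Cox7a2, 4.41 CPM. Cox8b was at 0 in all 16 libraries, and Ndufa4l2, the hypoxia-induced relative of Ndufa4, averaged 0.0539 CPM. Their ubiquitous counterparts Cox4i1, Cox6a1, Cox7a2, Cox8a and Ndufa4 were all members, with group means of Cox8a, for example, of 450 to 502 CPM.

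Tags of many members could be shared with copies elsewhere in the genome. In the GENCODE M21 annotation, 34 of the 76 members with a coding transcript had at least 1 processed pseudogene with 90% identity or more over 100 or more coding bases, 98 such copies in all. Cox7c and its copy Cox7c-ps1 (357 CPM over all libraries) are shown because the copy, on chromosome 17, differs from its parent on chromosome 13 (863 CPM) at only 2 of 192 coding bases and has the highest level among the 98 copies. Capitals mark the bases that differ, and the sequences are those of GENCODE M21 on the build GRCm38.
Cox7c: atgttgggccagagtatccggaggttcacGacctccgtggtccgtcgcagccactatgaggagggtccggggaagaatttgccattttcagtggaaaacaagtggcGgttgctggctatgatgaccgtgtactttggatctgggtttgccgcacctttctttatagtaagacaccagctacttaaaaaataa
Cox7c-ps1: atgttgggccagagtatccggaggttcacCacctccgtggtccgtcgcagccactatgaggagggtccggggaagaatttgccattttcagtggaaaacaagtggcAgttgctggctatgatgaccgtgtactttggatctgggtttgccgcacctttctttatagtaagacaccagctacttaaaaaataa
Gm10175, a copy of the c-subunit gene Atp5g2 with 100% coding identity, averaged 140.8 CPM against 108 CPM for Atp5g2 itself. Atp5l, a subunit of the membrane part of ATP synthase, had 16 such copies, whose summed 484 CPM compare with 1390 CPM for the gene. Identity was compared over coding bases only, not over the bases after the stop. Whether the 3' tags were shared was not tested, so how far the levels of these members are uncertain is not known. In a setting chosen after the data were seen, the counts of copies were added to their best-matching member. Cox6c2 and Ndufb4c, which are members themselves, were left as they are. No count of members called in the comparisons below then left the limit of 1.5 times. Of the members called in those comparisons, 1 lost its call, Atp5g2 for rimeporide in KO, whose copies hold 59.5% of the summed counts.

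Between the genotypes in DMSO, 11 of the 79 members differed: 5 were higher in KO than in WT and 6 were lower, at an adjusted p under 0.05 in edgeR's two-sided quasi-likelihood test with Benjamini-Hochberg adjustment over all tested genes. The higher ones came from 4 complexes (Ndufb3, Ndufa1, Sdhb, Uqcrfs1 and Atp5g3), and the lower ones included Ndufa4, Ndufa6, Ndufa7, Cox6c2 and Atp5b. Changes ran from a fall of 0.57 to a rise of 0.73 on the log2 scale, and the median over the members was 0.004, against 0.009 over all tested genes. Of all tested genes, 10.1% were higher and 8.56% lower, and among the 9692 tested genes with a mean of at least 5 CPM, as all members have, 9.4% were higher and 9.81% lower. Of the members 6.33% were higher and 7.59% lower. A change of more than 0.5 on the log2 scale was seen in 3.8% of the members and in 14.8% of those 9692 genes.

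Ndufb3, an accessory subunit of the membrane arm of complex I on chromosome 1, rose most. Its CPM was 152, 146, 151 and 176 in WT DMSO and 348, 150, 254 and 288 in KO DMSO, a log2 change of 0.73 (SE 0.155, 1.66-fold, adjusted p = 0.00189 in edgeR). Replicates 1, 3 and 4 of KO DMSO were above every WT library, while replicate 2 fell within the WT range. The same order held for Uqcrfs1, the Rieske iron-sulfur protein that carries electrons within complex III, which read 112, 110, 119 and 147 CPM in WT DMSO and 231, 128, 190 and 186 CPM in KO DMSO. Its log2 change was 0.58 (SE 0.126, 1.5-fold, adjusted p = 0.00232 in edgeR), again with replicate 2 inside the WT range.

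Atp5g3, one of the genes for the c subunit that forms the rotor ring of ATP synthase, read 1066, 1105, 1170 and 1237 CPM in WT DMSO and 1731, 1240, 1497 and 1856 CPM in KO DMSO. The groups did not overlap, but replicate 2 of KO lay only just above the highest WT library; the log2 change was 0.46 (SE 0.102, adjusted p = 0.00272 in edgeR). The other c-subunit genes did not pass and lay below 0, with log2 differences of -0.12 for Atp5g1 and -0.17 for Atp5g2. Ndufa1, an X-linked accessory subunit of complex I, read 180, 159, 173 and 165 CPM in WT and 265, 171, 234 and 235 CPM in KO, a rise of 0.41 (SE 0.0973, adjusted p = 0.00444 in edgeR), with replicate 2 inside the WT range.

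Sdhb, the iron-sulfur subunit of complex II on chromosome 4, was high in every KO DMSO library. It read 75.8, 76.6, 82.2 and 84 CPM in WT DMSO and 102, 95.7, 105 and 92.9 CPM in KO DMSO, so all 4 KO libraries, replicate 2 included, were above all 4 WT libraries. The log2 change was 0.30 (SE 0.0832, 1.23-fold, adjusted p = 0.0136 in edgeR), and it did not pass without a filter on low counts (0.33, adjusted p = 0.0606 in edgeR). The other subunits of complex II, the flavoprotein Sdha and the membrane anchors Sdhc and Sdhd, had log2 differences of -0.04, 0.15 and 0.16 and did not pass.

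Among the members that fell, Ndufa4, which carries a complex I name but is now placed with complex IV, read 251, 264, 286 and 238 CPM in WT DMSO and 204, 237, 217 and 181 CPM in KO DMSO. The groups did not overlap, and the log2 change was -0.32 (SE 0.0883, adjusted p = 0.0141 in edgeR). Atp5b, the catalytic beta subunit of ATP synthase, read 348, 346, 314 and 311 CPM in WT and 260, 291, 289 and 229 CPM in KO, a fall of 0.31 (SE 0.0927, adjusted p = 0.0218 in edgeR) with no overlap. Atp5a1, the alpha subunit that alternates with it in the catalytic head, did not pass, at a log2 difference of 0.10 (adjusted p = 0.386 in edgeR).

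Cox6c2, the processed pseudogene related to the complex IV gene Cox6c, fell by 0.57, with 22.2, 43.4, 24.6 and 20.6 CPM in KO DMSO against 38 to 44.7 CPM in WT DMSO, and KO replicate 2 was inside the WT range. Cox6c itself differed by -0.08 (adjusted p = 0.419 in edgeR). The accessory subunits Ndufa7 and Ndufa6 of complex I changed by -0.35 and -0.25, with overlapping groups in both. The 7 core subunits of complex I in the nucleus had a median of -0.16 and the other 31 complex I members a median of 0.05. Over all 11 called members, KO DMSO replicate 2 lay within the WT DMSO range for 6, while replicates 1, 3 and 4 were all outside it for 11, and the groups did not overlap for 5. The calls rest on the same libraries, so these counts only describe the called members. They were not made for all tested genes.

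Leaving out libraries ended the calls of the members that fell and of none that rose. The 5 higher members passed without any 1 of the 16 libraries, whereas each of the 6 lower members lost its call without at least 2 of them. The lower count was 2 without KO DMSO replicate 1, 2 without replicate 3, 1 without replicate 4, 3 without WT DMSO replicate 1, 1 without WT DMSO replicate 2, 3 without WT DMSO replicate 3, and 11 without KO DMSO replicate 2, where the higher count was 9. Calls over all tested genes were not counted with libraries left out. With the processed pseudogene score added to the model as a covariate, 0 members passed in either direction, against 551 higher and 257 lower of all 12272 tested genes. Most changes shrank (Ndufb3 to 0.15 and Uqcrfs1 to 0.22), but Sdhb stayed at 0.32 (adjusted p = 0.0676 in edgeR). In the 3 KO DMSO libraries with low scores the score and the group cannot be told apart.

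**Figure D2:**
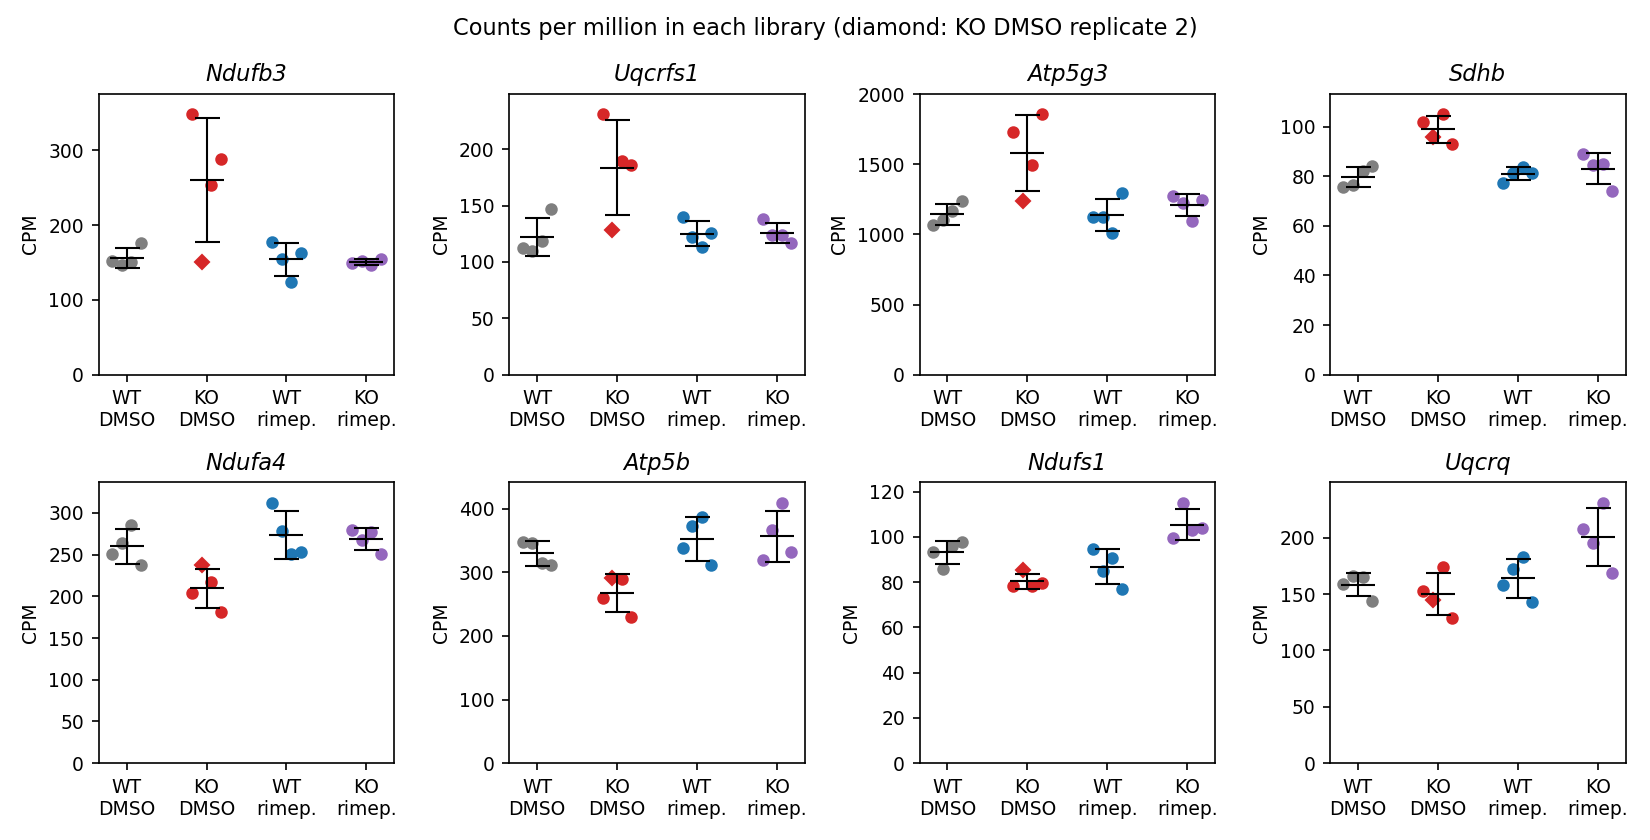
CPM of 8 members with 1 point for each library, grouped by genotype and treatment; a diamond marks KO DMSO replicate 2, bars give the mean and SD of 4 libraries, and each vertical axis starts at 0. In Ndufb3 and Uqcrfs1 the diamond sits with the WT libraries while the other 3 KO DMSO libraries lie above them; in Sdhb all 4 KO DMSO libraries, at 92.9 to 105 CPM, lie above WT DMSO.

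Promoters of this family are known for sites of NRF1, of ETS factors such as GABPA, of YY1 and of SP1, the factors that tie subunit genes to mitochondrial biogenesis. RefSeq windows from 250 bases before to 50 bases after the start, on GRCm38.p6, matched 65 of the 79 members. Entries missing from the table included Cox6c2, Uqcrq, Atp5a1, Ndufs1, Ndufb4c, Cox6c, Cox4i1, Sdhc, Uqcrc2, Uqcrb, Ndufa2, Ndufb9 and Atp5mpl. The windows of Sdhb, Ndufa6 and Ndufb3 are shown, chosen after their values were seen, as a member that rose in every KO DMSO library, one that fell and the one that rose most. Capitals mark exact matches on either strand to the NRF1 core GCGCATG, the ETS core CCGGAAG, the YY1 core AAGATGG and the GC box GGGCGG.
Sdhb, chr4:140961021-140961320, + strand: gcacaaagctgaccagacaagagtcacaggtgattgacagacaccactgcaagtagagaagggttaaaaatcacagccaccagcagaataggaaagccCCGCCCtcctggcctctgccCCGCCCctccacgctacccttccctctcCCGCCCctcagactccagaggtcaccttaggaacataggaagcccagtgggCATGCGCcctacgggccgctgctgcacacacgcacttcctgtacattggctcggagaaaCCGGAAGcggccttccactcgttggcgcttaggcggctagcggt
Ndufa6, chr15:82354242-82354541, - strand: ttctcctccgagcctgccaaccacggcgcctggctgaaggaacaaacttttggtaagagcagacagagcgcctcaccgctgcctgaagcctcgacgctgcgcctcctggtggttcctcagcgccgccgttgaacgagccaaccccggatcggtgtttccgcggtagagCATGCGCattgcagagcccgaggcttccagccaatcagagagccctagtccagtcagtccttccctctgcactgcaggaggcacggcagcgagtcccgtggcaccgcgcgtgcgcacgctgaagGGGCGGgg
Ndufb3, chr1:58586147-58586446, + strand: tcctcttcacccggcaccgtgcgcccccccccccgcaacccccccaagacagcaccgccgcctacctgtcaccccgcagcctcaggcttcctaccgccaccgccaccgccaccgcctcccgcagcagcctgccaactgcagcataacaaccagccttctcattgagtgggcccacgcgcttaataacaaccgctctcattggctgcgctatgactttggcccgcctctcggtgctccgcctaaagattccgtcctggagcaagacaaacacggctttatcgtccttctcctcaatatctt
The Sdhb window held 3 kinds of motif, the Ndufa6 window 2 and the Ndufb3 window had no match. The NRF1 core was in 20% of the members' windows, in 8.36% of those of 8854 tested genes and in 4.41% of those of all 27025 genes. The ETS core was in 26.2% of the members, 21.9% of the tested genes and 9.93% of all genes, and the YY1 core in 16.9%, 8.81% and 7.28%. The GC box was in 40% of the members, 69.5% of the tested genes and 38.2% of all genes. These matches describe the windows, and neighbouring motifs can share letters, as the end of the ETS core and the start of the YY1 core do.

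With rimeporide present in both genotypes, no member passed the test between KO and WT. The count was 0 higher and 0 lower in edgeR, with 5 members at an unadjusted p under 0.05 and 1 call, Ndufs1, in DESeq2. Over all tested genes, 5.14% were higher and 2.32% lower, so calls were fewer here for genes in general too. Member changes lay between -0.17 and 0.44 with a median of 0.04, against 0.01 over all tested genes.

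Ndufs1, the largest core subunit of complex I and the site of iron-sulfur clusters near the NADH end, came nearest, at a log2 difference of 0.27 (SE 0.0854, adjusted p = 0.0532 in edgeR). Its CPM was 94.8, 84.7, 90.8 and 77 in WT rimeporide and 99.5, 115, 103 and 104 in KO rimeporide, which do not overlap. The next by p were Uqcrq, a small subunit of complex III, at 0.29, the complex I core subunit Ndufs8 at 0.44, the complex IV subunit Cox5a at 0.19 and the ATP synthase delta subunit Atp5d at -0.17, and none passed. For the members called in DMSO, the log2 differences under rimeporide were -0.05 for Ndufb3, -0.01 for Uqcrfs1, 0.08 for Atp5g3, 0.03 for Sdhb and 0.01 for Atp5b, with overlapping groups in each. Whether those differ from the values in DMSO is the interaction given below.

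In WT cells, no member and no other tested gene passed between rimeporide and DMSO in edgeR, and DESeq2 called 6 genes, none of them a member. The count of members was 0 higher and 0 lower in edgeR, with 5 at an unadjusted p under 0.05 and 0 calls in DESeq2, against a background of 0% of tested genes in each direction. The median over the members was 0.07, against 0.01 over all tested genes, with changes between -0.13 and 0.29. Of the 79 members 63 lay above 0, and of all 12272 tested genes 6315 did. A similar lean was seen in cytosolic ribosomal protein genes, where 74 of 95 lay above 0 with a median of 0.06. The members with the smallest p were Atp5j, the coupling factor 6 subunit, at 0.29 (adjusted p = 0.748 in edgeR), Atp5mpl at 0.21, Cox7b at 0.20, the gamma subunit Atp5c1 at 0.23 and the stator subunit Atp5pb at 0.15. Atp5j read 269, 241, 271 and 225 CPM in WT DMSO and 297, 299, 339 and 277 CPM in WT rimeporide, without overlap between the groups.

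In KO cells, rimeporide went with higher levels of 16 members and lower levels of 3. The 16 were spread over complexes I (5), III (2), IV (3) and V (6), with none in complex II, and included the catalytic Atp5b, the core subunit Ndufs1 and the structural complex IV subunits Cox4i1 and Cox5a. The 3 that fell were Ndufb3, Uqcrfs1 and Atp5g3. Of all tested genes 8.43% were higher and 6.35% lower, and of the 9692 with a mean of at least 5 CPM 9.09% and 7.87%, against 20.3% and 3.8% of the members. The median over the members was 0.09 (all tested genes -0.01), by complex 0.10 in I, -0.15 in II, -0.04 in III, 0.14 in IV and 0.17 in V. This comparison uses the same KO DMSO libraries as that of KO against WT in DMSO, so the values of both rest on them together.

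**Figure D3:**
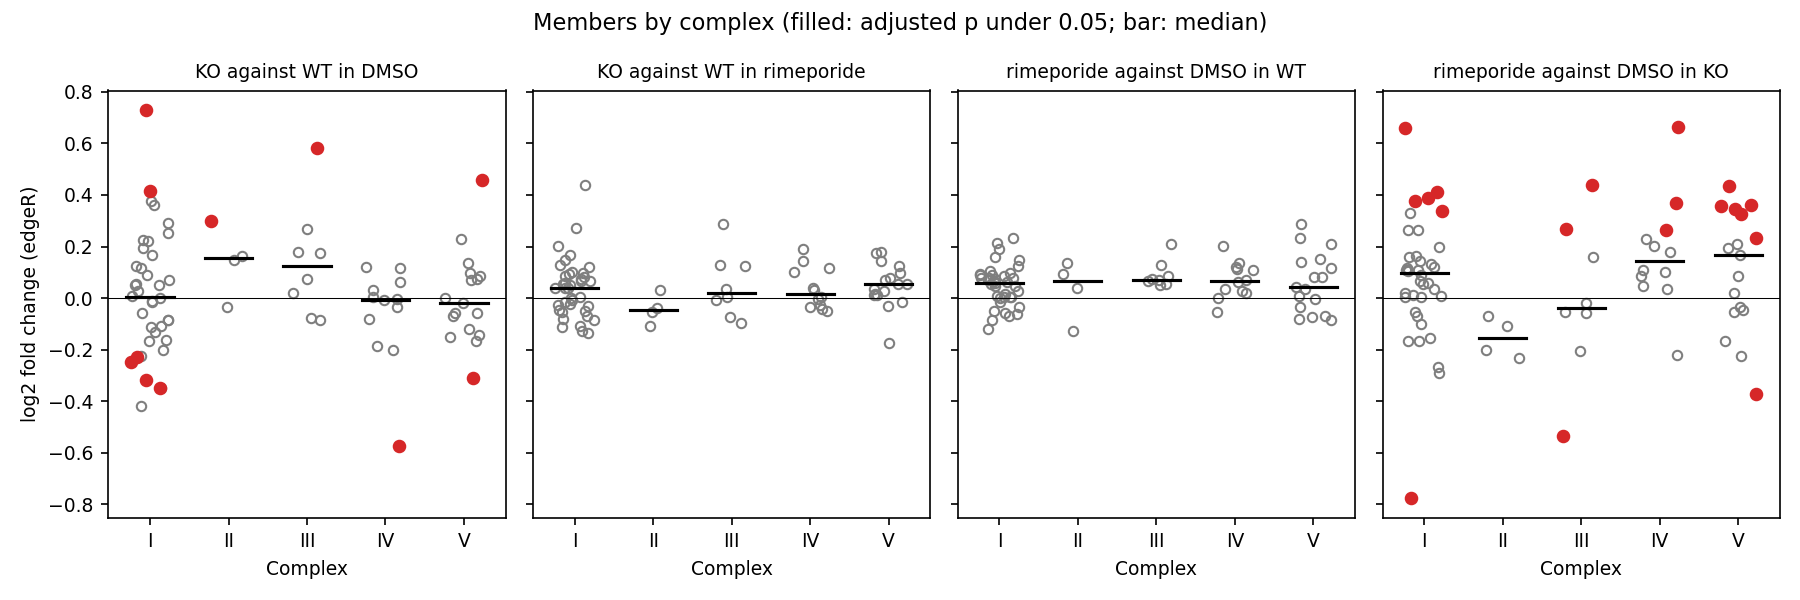
Fitted log2 fold changes of the 79 members by complex in 4 comparisons, with filled points for an adjusted p under 0.05 and bars for the median of a complex. Filled points stand in both comparisons that use the KO DMSO libraries, 11 in the first panel and 19 in the last, and the panels of KO against WT in rimeporide and of rimeporide in WT hold none.

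Ndufs1 had the smallest p among those that rose: 78.1, 85.3, 78.2 and 79.4 CPM in KO DMSO and 99.5, 115, 103 and 104 CPM in KO rimeporide (log2 change 0.41, SE 0.0849, 1.33-fold, adjusted p = 0.00466 in edgeR). The 4 KO rimeporide libraries lay above all 12 others, which reached 97.5 CPM. Atp5b read 260, 291, 289 and 229 CPM in KO DMSO and 319, 366, 409 and 332 CPM in KO rimeporide (0.44, SE 0.0927, adjusted p = 0.0052 in edgeR). Its groups did not overlap, and KO rimeporide replicate 3 was above every WT library, which ranged from 311 to 387 CPM. Uqcrq read 153, 145, 174 and 129 CPM against 208, 195, 231 and 169 CPM, a rise of 0.44 (SE 0.102, adjusted p = 0.00749 in edgeR), with 1 KO rimeporide library inside the DMSO range.

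Ndufa4 rose by 0.38 (SE 0.0884, adjusted p = 0.00797 in edgeR), from 181 to 237 CPM in KO DMSO to 251 to 279 CPM in KO rimeporide, without overlap. The ATP synthase subunits Atp5j2 and Atp5j rose by 0.36 each, Atp5pb by 0.23 and the c-subunit genes Atp5g1 and Atp5g2 by 0.35 and 0.32. Atp5g2 did not pass with the counts of its copies added (0.21, adjusted p = 0.108 in edgeR), and with the processed pseudogene score in the model it stood at -0.03. In complex IV, Cox5a rose by 0.26 and Cox4i1 by 0.37, and in complex I the accessory subunits Ndufa3 and Ndufs4 rose by 0.39 and 0.34. Uqcr10, a small subunit of complex III, rose by 0.27. The processed pseudogenes Cox6c2 and Ndufb4c rose by 0.67 and 0.66, and Ndufb4c has 100% coding identity with Ndufb4, which did not pass.

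The 3 members that fell were each high in KO DMSO replicates 1, 3 and 4. Ndufb3 went from 348, 150, 254 and 288 CPM in KO DMSO to 149, 152, 146 and 155 CPM in KO rimeporide (-0.78, SE 0.155, 1.71-fold lower, adjusted p = 0.00396 in edgeR). Uqcrfs1 went from 128 to 231 CPM to 117 to 138 CPM (-0.54, adjusted p = 0.00813 in edgeR), and Atp5g3 from 1240 to 1856 CPM to 1093 to 1273 CPM (-0.37, adjusted p = 0.0172 in edgeR). In all 3, KO DMSO replicate 2 lay within the KO rimeporide range. Sdhb read 89.1, 84.5, 84.8 and 74.2 CPM in KO rimeporide, below all KO DMSO libraries, but did not pass (-0.23, adjusted p = 0.0642 in edgeR), and all 4 members of complex II lay below 0.

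Without any 1 library, the calls on Ndufs1, Atp5b, Uqcrq, Ndufa4, Ndufb3 and Uqcrfs1 held, and each of the other 13 was lost at least once. The higher count was 7 without KO DMSO replicate 1, 7 without replicate 3, 4 without replicate 4, 8 without KO rimeporide replicate 2 and 4 without KO rimeporide replicate 3, and the lower count was 8 without KO DMSO replicate 2. For these fits too, calls over all tested genes were not counted. With the processed pseudogene score in the model, 0 members passed in either direction, against 0 higher and 1 lower of all 12272 tested genes. The median over the members was then -0.01. Ndufs1 then stood at 0.34 (adjusted p = 0.901 in edgeR), Ndufb3 at -0.02 and Cox6c2 at -0.07, on the other side of 0.

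**Figure D4:**
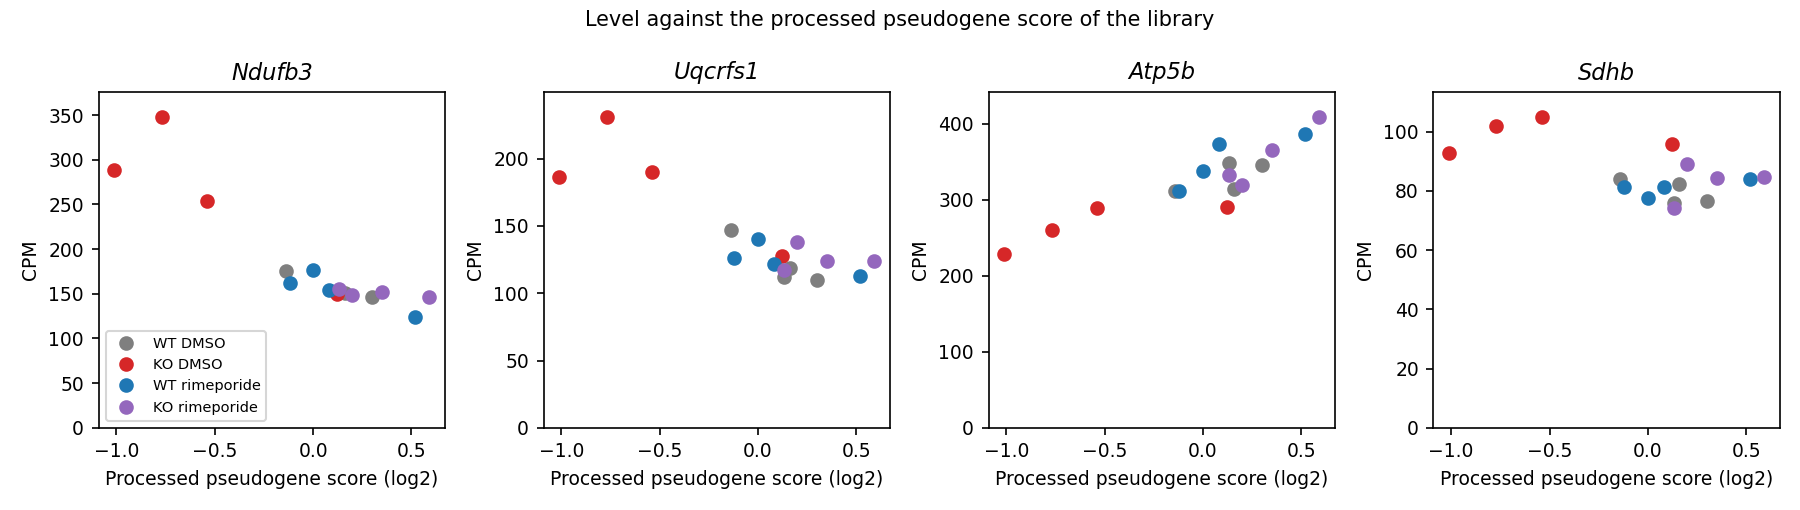
CPM of Ndufb3, Uqcrfs1, Atp5b and Sdhb in each of the 16 libraries (vertical axes from 0) against the processed pseudogene score of the library (log2), coloured by group. The 3 KO DMSO libraries with scores of -0.54 and below hold the highest values of Ndufb3 and Uqcrfs1 and the lowest of Atp5b, with the fourth KO DMSO library among the WT ones for Ndufb3; for Sdhb all 4 KO DMSO libraries are high.

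**Figure D5:**
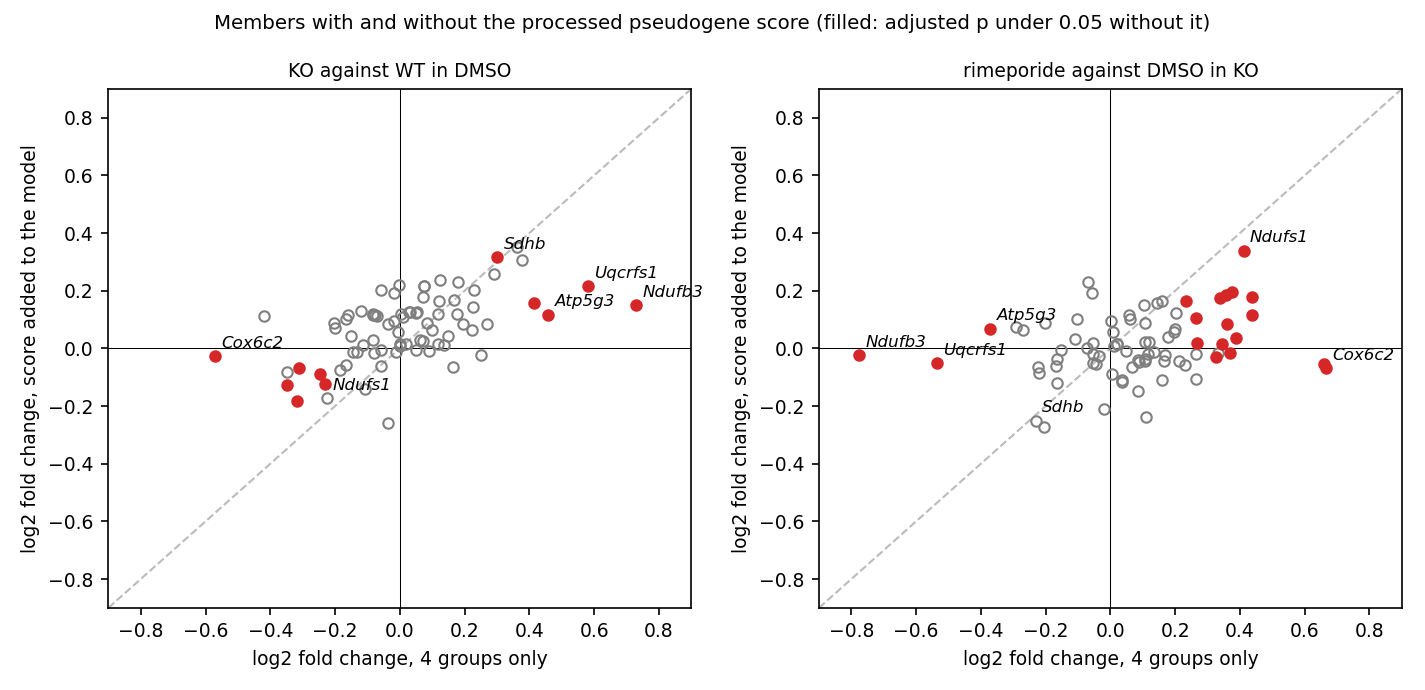
Log2 fold changes of the 79 members from the model of the 4 groups (horizontal) and with the processed pseudogene score added (vertical), for 2 comparisons; filled points passed without the score and the dashed line marks equal values. Of the filled points, 10 of 11 in the left panel and 19 of 19 in the right lie nearer 0 on the vertical than on the horizontal axis, 8 in each panel still lie more than 0.1 from 0, and Sdhb in the left panel, at 0.30 and 0.32, lies close to the dashed line.

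The difference in response to rimeporide between the genotypes passed for no member in edgeR as fitted here, but the count depended on the fit. In the interaction, the change with rimeporide in KO minus that in WT, 0 members were higher and 0 lower in edgeR, with 14 at an unadjusted p under 0.05 and 1 call, Ndufs1, in DESeq2. Of all tested genes 0.0163% were higher and 0% lower in edgeR, 2 genes in all, while DESeq2 called 184. The members with the smallest p were Ndufs1 at 0.50 (SE 0.12, adjusted p = 0.0952 in edgeR), Ndufb3 at -0.78 (SE 0.22, adjusted p = 0.0962), Uqcrfs1 at -0.59, Ndufa7 at 0.39 and Atp5g3 at -0.38. Without KO DMSO replicate 2, whose processed pseudogene score was 0.12, the counts were 5 higher and 5 lower. The other KO DMSO libraries had scores of -1.01 to -0.54. Without WT rimeporide replicate 3 the counts were 1 and 1. Without a filter on low counts 3 members were lower, Atp5g3, Ndufb3 and Uqcrfs1. Calls over all tested genes were not counted in these fits, so no share stands beside these counts.

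Genes around the complexes changed in small numbers as well. For the counts with the score below, all 12272 tested genes then held 551 higher and 257 lower in KO DMSO. For rimeporide in KO they held 0 higher and 1 lower. Of 55 tested assembly factors, which build the complexes without being part of them, 5 were higher and 0 lower in KO DMSO against WT DMSO. That is 9.09% higher, near the 10.1% of all tested genes, and with the processed pseudogene score in the model 0 were higher. Among the 5 were Fmc1, which assists ATP synthase assembly, at 0.55, and the complex IV factors Coa5 at 0.30, Cox15, which makes heme A, at 0.64 and Cox20 at 0.32. With rimeporide in KO, 1 assembly factor was higher, Sdhaf2, which adds flavin to Sdha, at 0.55, and 3 were lower, Coa5 at -0.40, Cox20 at -0.38 and Fmc1 at -0.46, or 1.82% and 5.45% against 8.43% and 6.35% of all tested genes, with 0 and 0 when the score was added. Between KO and WT in rimeporide, 1 was higher, Cmc2 at 0.72, or 1.82% against 5.14% of all tested genes.

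Of the 13 subunits encoded by the mitochondrial genome, 4 were higher and 0 lower in KO DMSO, all of them complex I subunits: mt-Nd4l at 0.45, mt-Nd2 at 0.39, mt-Nd4 at 0.45 and mt-Nd1 at 0.27. That is 30.8% higher against 10.1% of all tested genes, and with the score in the model 1 was higher and the median of the list was 0.04. Rimeporide in KO went with lower mt-Nd4 (-0.46), mt-Nd4l (-0.40) and mt-Nd2 (-0.35) and higher mt-Nd3 (0.49), 23.1% lower and 7.69% higher against 6.35% and 8.43%, and with the score 0 passed in either direction. Between KO and WT in rimeporide 1 fell, the catalytic complex IV subunit mt-Co1, at -0.38, or 7.69% against 2.32% of all tested genes. The summed level of the 13 was 9474 CPM ± 663 in WT DMSO, 10846 ± 1519 in KO DMSO, 10724 ± 396 in WT rimeporide and 10062 ± 306 in KO rimeporide.

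Among 14 tested regulators of mitochondrial biogenesis, 2 were higher and 1 lower in KO DMSO, and with the score 1 and 0. Without the score that is 14.3% and 7.14%, against 10.1% and 8.56% of all tested genes. Ppargc1a, the coactivator PGC-1alpha, rose by 4.82 on the log2 scale from 0.154 CPM ± 0.18 to 5.05 ± 2.29, and by 2.39 between the genotypes in rimeporide, from 0.625 ± 0.413 to 3.62 ± 0.301 CPM. Neuronal and astrocyte markers were higher in the same KO libraries, and their part in the Ppargc1a values was not tested. Lrpprc, which stabilises mitochondrial messenger RNAs, rose by 0.95 in KO DMSO and fell by 1.07 with rimeporide in KO, and Polrmt, the mitochondrial RNA polymerase, fell by 1.00 in KO DMSO. Rimeporide in KO also went with lower Yy1, at -0.28. In that comparison 0 regulators were higher and 2 lower, the latter 14.3% against 6.35% of all tested genes. With the score 0 regulators passed there.

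Of 18 tested genes of the TCA cycle and pyruvate entry, 1 was higher in KO DMSO, Pdhx at 0.49, or 5.56% against 10.1% of all tested genes. With rimeporide in KO 1 was higher, Idh3a at 0.49, and 1 lower, Pdhx at -0.60. Each is 5.56%, against 8.43% higher and 6.35% lower of all tested genes. With the score 0 passed in either comparison. Fh1 was the 1 gene higher between KO and WT in rimeporide, at 0.47, or 5.56% against 5.14% of all tested genes. Of 17 genes of electron carriers, inner membrane carriers and other proteins of the mitochondrial membranes and the space between them, 5 were higher and 1 lower in KO DMSO, among them the adenine nucleotide carrier Slc25a5 at 0.33 and, lower, the phosphate carrier Slc25a3 at -0.31. Those shares, 29.4% and 5.88%, stand against 10.1% and 8.56% of all tested genes. With rimeporide in KO 2 were lower, or 11.8% against 6.35%, and neither is a carrier: Chchd2, a protein of the intermembrane space, at -0.37 and Tomm7, a part of the outer membrane import channel, at -0.33. With the score 0 genes of the list passed in either of these comparisons. Between KO and WT in rimeporide 1 was lower, the uncoupling protein family member Ucp2, at -0.49, or 5.88% against 2.32% of all tested genes.

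Of 23 tested glycolytic genes, 3 were higher and 1 lower in KO DMSO: Aldoc at 1.70, which is also an astrocyte marker, Pgam1 at 0.51, Hk2 at 0.56 and, lower, Pkm at -0.36. Those are 13% and 4.35%, against 10.1% and 8.56% of all tested genes, and with the score 2 were higher and 1 lower. In rimeporide 2 were higher in KO than in WT, Aldoc at 1.59 and Hk3 at 0.40, and 2 lower, Slc2a1 at -0.34 and Pkm at -0.26. Each count is 8.7% of the list, against 5.14% higher and 2.32% lower of all tested genes. With rimeporide in KO 5 rose and 0 fell, among them Hk3 at 0.40, Eno1 at 0.53, Ldhb at 0.64 and Ldha at 0.28. That is 21.7% against 8.43% of all tested genes, and with the score 0 rose and the median was -0.04. In none of these lists did a gene pass for rimeporide in WT or for the interaction, by edgeR.

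Cytosolic ribosomal protein genes, another large set of short transcripts with many processed pseudogenes, moved in the same comparisons. Of 95, 1 was higher and 21 lower in KO DMSO (1.05% and 22.1%), and 41 rose and 0 fell with rimeporide in KO (43.2% and 0%). Of the 79 members, 5 were higher and 6 lower (6.33% and 7.59%), and 16 rose and 3 fell (20.3% and 3.8%). The shares of all tested genes were 10.1% and 8.56% in KO DMSO, and 8.43% and 6.35% for rimeporide in KO. Processed pseudogenes themselves, 933 tested, were lower in 349 cases and higher in 0 in KO DMSO (37.4% and 0%). With rimeporide in KO they were higher in 504 and lower in 1 (54% and 0.107%).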

How the data were processed

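For 16 libraries the authors deposited a table of expected counts over 56980 genes, made with Salmon on GRCm39 per the submitters' processing notes. No source used here names the version or the annotation release. Libraries were QuantSeq 3' tags with molecular identifiers, per the labels' protocols, and whether duplicates were removed before counting is not given. Of the values, 13.7% were not whole; all were rounded, which changed 0.0207% of the total. The deposited log2 CPM values were not used; CPM here is the deposited count over the library total.

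Members and lists were chosen with earlier results of these data known. Genes were kept by filterByExpr (minimum count 10, minimum total 15), scaled by TMM and fitted over all 4 groups with edgeR 4.0.16 (R 4.3.3, limma 3.58.1), with 12 residual degrees of freedom. Calls are at an adjusted p of 0.05 by Benjamini-Hochberg over the 12272 genes tested, with the interaction as a further contrast. Depth ran from 3666413 to 7929499 counts. No pair of libraries had identical counts. The fitting code was tested on simulated data, where fold changes were recovered close to their true size but most of the smaller true changes and a sizeable part of the larger ones were not called, so a count of 0 does not show that members did not differ. The limit used to accept that test was lowered after its outcome was seen.

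Alternatives were RLE scaling, library totals only, DESeq2 1.42.0, other filters, a replicate block, each library left out, the processed pseudogene score as a covariate (mean log2 CPM with a prior count of 2), and, added after the data were seen, copies added to members. The limit of 5 CPM for the background, the transcript copies and the promoter windows were also added then. Named members are those that passed, up to 12 in each direction by p, with the others of rimeporide in KO (Atp5pb, Atp5g1, Atp5g2 and Uqcr10) named after their values were seen, or else the 5 with the smallest p, the highest CPM of each complex, the isoform pairs and c-subunit genes, and up to 4 per other list. Other members named for comparison, such as Atp5a1, Cox6c, Sdha, Sdhc and Sdhd, were chosen after their values were seen. One item is not reported here by name.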

Additional observations from a re-analysis of the deposited data

Results flagged for a closer look

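Of 124 groups of 4 libraries screened, 4 held a library far from the other 3, where chance flags about 1 in 20 groups. Atp5c1 in WT rimeporide replicate 3 stood at 174 CPM, with the others at 146 to 148. Cox5a in WT rimeporide replicate 2 stood at 291 CPM, with the others at 313 to 318. Ndufb4c in KO DMSO replicate 2 stood at 17.1 CPM, with the others at 10.1 to 10.3. The summed CPM of complex IV in KO DMSO replicate 4 was 3802, with the others at 4198 to 4234. For Ndufb4c, the library that stood apart is the KO DMSO library whose processed pseudogene score was 0.12, where the other 3 had scores of -1.01 to -0.54; its part in this value was not tested.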

How the results depend on the processing

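RLE scaling, a filter of 1 CPM in 4 libraries and the addition of copies moved no count of members by more than 1.5 times, but with copies added Atp5g2 lost its call for rimeporide in KO. The processed pseudogene score as a covariate gave 0 higher and 0 lower in KO against WT in DMSO (median 0.086) and 0 and 0 for rimeporide in KO (median -0.005), with an interaction median of -0.049. Over all 12272 tested genes it left 551 higher and 257 lower in KO against WT in DMSO, and 0 and 1 for rimeporide in KO. It put 5 of the 19 members called for rimeporide in KO on the other side of 0, Cox6c2 at -0.068, Cox4i1 at -0.016, Ndufb4c at -0.053, Atp5g2 at -0.03 and Atp5g3 at 0.069, and Atp5g3 at 0.058 in the interaction. Without a filter on low counts, 2 members were lower in KO DMSO, 10 higher and 5 lower for rimeporide in KO, and 3 lower in the interaction (median -0.019); 5 of 11 calls in KO DMSO, Sdhb among them, and 6 of 19 for rimeporide in KO were lost. DESeq2 called 1 higher for KO against WT in rimeporide, 5 lower for rimeporide in KO and 1 higher in the interaction. Library totals alone gave 1 higher and 5 lower in the first 2 of these. The cause of these shifts was not tested. Calls over all tested genes were counted for the edgeR fit of the 4 groups, the score and DESeq2, and for no other setting.

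With each library left out in turn, KO against WT in DMSO had 5 to 9 higher and 1 to 11 lower (median -0.008 to 0.039), rimeporide in KO 4 to 18 higher and 2 to 8 lower (0.05 to 0.115), and the interaction 0 to 5 higher and 0 to 5 lower (-0.015 to 0.048). KO against WT in rimeporide had 0 to 1 higher and 0 lower (-0.01 to 0.041), and rimeporide in WT 0 and 0 (0.039 to 0.077).

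Replicate numbers were not taken to pair libraries: the deviations of same-numbered libraries correlated at -0.0302 to 0.233, not over 0.1 in every pair. As a hint from the data, replicate 4 was the best match of its own number in all 6 pairs of groups (0.114 to 0.233). Between DMSO and rimeporide within either genotype, replicates 1, 3 and 4 matched their own number best and replicate 2 matched number 3. KO DMSO with KO rimeporide gave 0.114, 0.0313, 0.126 and 0.185 for replicates 1 to 4. Not every library matched its own number best. With the number as a replicate block, 2 members were higher for KO against WT in rimeporide, 7 lower for rimeporide in KO, and 2 higher (Ndufs1 and Uqcrq) and 2 lower (Ndufb3 and Uqcrfs1) in the interaction. A block within genotype gave the same members in the interaction and 7 lower for rimeporide in KO. Counts between 3666413 and 7929499 a library and 4 libraries a group limit what could be detected.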
